A study of Mus musculus with 6 samples.

Results

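The synaptic vesicle release machinery was examined in frontal cortex of mice that overexpress interleukin-6 in the brain. It is represented by 31 genes for SNAREs, calcium sensors, vesicle membrane proteins, vesicular glutamate transporters, active zone scaffolds and endocytic proteins. The members were picked as a list of gene symbols and matched to the symbol column of the gene count table. All 31 were found, each in a single row, among 33000 genes, and all 31 passed the filter on low counts that left 15341 genes for testing. TruSeq mRNA libraries had been made from frontal cortex of 3 homozygous GFAP-IL6 mice, in which the astrocytic Gfap promoter drives Il6, and of 3 wild-type (WT) mice. All 6 mice were 3 months old and labelled C57BL/6, and each library came from a different mouse. The comparison asks how these transcripts differ between the brain with chronic astrocytic IL6 and the normal brain.

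Neurotransmitter is loaded into synaptic vesicles by transporters in the vesicle membrane, and filled vesicles are docked and primed at the active zone, a protein scaffold on the presynaptic membrane. On arrival of an action potential, calcium binds synaptotagmin and the SNARE proteins of vesicle and plasma membrane zip together, so that the membranes fuse. The SNARE complex is then taken apart by an ATPase, and the vesicle membrane is retrieved by endocytosis and refilled. In the cortex these transcripts are made in neuronal cell bodies, mostly for synapses of glutamatergic projection neurons and of local inhibitory neurons.

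The promoters of Syp and Bsn are shown because these members had the smallest unadjusted p of those lower and of those higher in GFAP-IL6. Syp encodes synaptophysin, the classical marker protein of the vesicle membrane. Bsn encodes bassoon, a giant scaffold protein of the active zone. Each sequence runs 5′ to 3′ from 250 bases before to 50 bases after a start site of RefSeq on GRCm38.p6. Capitals mark the GC box GGGCGG on either strand, the sequence bound by SP-family factors.
Syp promoter (chrX:7638330-7638629, plus strand): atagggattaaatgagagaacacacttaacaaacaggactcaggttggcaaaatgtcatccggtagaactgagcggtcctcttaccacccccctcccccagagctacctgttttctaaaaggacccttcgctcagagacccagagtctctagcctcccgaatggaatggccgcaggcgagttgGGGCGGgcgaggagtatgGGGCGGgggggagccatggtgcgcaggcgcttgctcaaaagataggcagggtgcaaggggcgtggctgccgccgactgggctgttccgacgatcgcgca
Bsn promoter (chr9:108190334-108190633, minus strand): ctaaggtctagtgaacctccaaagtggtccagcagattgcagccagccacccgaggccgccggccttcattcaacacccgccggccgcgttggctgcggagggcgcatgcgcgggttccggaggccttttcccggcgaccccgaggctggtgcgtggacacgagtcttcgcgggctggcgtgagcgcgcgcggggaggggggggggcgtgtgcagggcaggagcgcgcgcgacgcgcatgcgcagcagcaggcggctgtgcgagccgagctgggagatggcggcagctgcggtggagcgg
The Syp promoter held 2 GC boxes and the Bsn promoter 0. Of the Syp promoter 59.0% of bases were G or C, and of the Bsn promoter 72.3%. RefSeq promoters were matched for 27 of the 31 members, 35 promoters in all, and Doc2a, Snap25, Syngr3 and Vamp2 had no match. A GC box lay in 60.0% of the member promoters (21 of 35) and in 35.7% of all 32851 promoters of that length. The TATA box TATAAA, searched on both strands, was found in 2 member promoters (5.71%), both of Sv2b, against 13.6% of all promoters. The cAMP response element TGACGTCA, which reads the same on both strands, was found in the promoters of Syn1 and Sh3gl2, or 5.71% against 1.79%. The median GC content was 61.3% for member promoters and 52.7% for all. These matches describe letters in a window and were not tested against expression.

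The libraries held between 7559524 counts (GFAP-IL6 replicate 2) and 16877001 counts (WT replicate 2), and the members took 1.84% to 2.10% of them. Il6 had 0, 2 and 0 counts in WT replicates 1, 2 and 3, and 12, 10 and 24 counts in GFAP-IL6 replicates 1, 2 and 3 (edgeR adjusted p = 0.00208). Gfap, which encodes the intermediate filament of reactive astrocytes, rose from 94.5 ± 24.8 to 678 ± 179 CPM (counts scaled to a TMM-adjusted total of 1000000, mean ± SD, n = 3), with a log2 fold change of 2.84 and an edgeR adjusted p of 5.49e-06. Both genes went with the labels in all 6 libraries. The 8 markers of cortical projection neurons, among them Tbr1 and Neurod6, were present in every library, with summed levels of 600.4 to 660.1 CPM in WT and 594 to 623 CPM in GFAP-IL6.

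Per base of transcript, most members were abundant. TPM divides counts by the gene length given in the table and scales the result to a total of 1000000 in each library. In WT, 4 members were above 1000 TPM, 22 lay between 100 and 1000 TPM, and 5 were below 100 TPM, while the median gene tested was at 20.7 TPM. The highest level was that of Snap25, a plasma membrane SNARE, at 4020.1 ± 103 TPM (mean ± SD, n = 3), and the next were Syp at 1372 ± 50.9 TPM, Slc17a7 at 1152 ± 156 TPM and Syt1 at 1003 ± 109.7 TPM. Snap25 stood clear of the rest, whereas Slc17a7 and Syt1 overlapped in their spread between libraries. The lowest were Bsn at 87.0 ± 25.2 TPM, Erc2 at 74.4 ± 9.80 TPM, Doc2a at 61.4 ± 8.60 TPM, Pclo at 44.1 ± 8.43 TPM and Slc17a6 at 13.5 ± 1.23 TPM. Of these, Bsn, Erc2 and Doc2a overlapped in their spread, so that their order was not resolved, and Slc17a6 was the only member below the median gene. The remaining members, from the highest level to the lowest, were Vamp2, Cplx1, Cplx2, Dnm1, Rab3a, Nsf, Syn1, Stx1a, Syngr1, Napb, Sv2a, Sv2b, Syn2, Amph, Syngr3, Synj1, Unc13a, Rims1, Sh3gl2, Vamp1, Ppfia3 and Rab3c. The table's lengths affect this order, since the exon bases of each gene in GENCODE M21 were 1 to 3.04 times the length used, with a median of 1.24. Snap25, which had the largest ratio, was highest under either length, but the places after it changed. With the exon bases Syp moved from rank 2 to 4, Slc17a7 from 3 to 6 and Syt1 from 4 to 8. Cplx1 moved from rank 6 to 2 and Vamp2 from 5 to 3. The levels under both lengths had a Spearman correlation of 0.97 across the 31 genes, which share the same counts.

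No member passed an adjusted p of 0.05 in GFAP-IL6 against WT (edgeR, 0 of 31). Of all genes tested 2.86% did, 407 of them higher and 32 lower. Syp had the smallest adjusted p, 0.121. At an unadjusted p under 0.05, 3 members were lower (Syp, Napb and Snap25), against 9.37% of all genes, and 2 were higher (Bsn and Unc13a), against 11.1%. The differences were small. The median absolute log2 fold change was 0.090 over the members and 0.15 over all genes. The median standard error was also smaller, 0.088 over the members and 0.12 over all genes. In WT 30 members were above the median TPM of the genes tested, and the part of their abundance in these values was not tested. The 95% interval lay within 1.5-fold of no change for 30 members, all but Bsn, against 68.1% of all genes, so that for these 30 a larger difference in either direction lay outside the interval.

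The sign of the fold change was negative for 23 members and positive for 8, where 50.6% of all genes were negative, but 15 of 31 were negative once the libraries were scaled to 15 neuronal genes that are not vesicle genes. The median log2 fold change of the members was -0.072 against -0.0038 for all genes, and 0.0026 against 0.068 under that scaling. Those 15 genes, among them Rbfox3 and Map2, ran from -0.28 for Gap43 to 0.092 for Camk2a. They had themselves a median of -0.065, with 10 lower and 0 past an adjusted p of 0.05 by edgeR. At an unadjusted edgeR p under 0.05, 4 of the 15 were lower (Gap43, Stmn2, Thy1 and Uchl1), against 9.37% of all genes, and 0 were higher, against 11.1%. The groups of 3 of the 15 did not overlap, all lower, against 12.7% of all genes. In bulk tissue, fewer neurons and less RNA per neuron cannot be told apart. All 3 GFAP-IL6 libraries lay below all 3 WT libraries for 5 members (Syp, Snap25, Napb, Rab3a and Rab3c), close to the 12.7% of all genes, and 0 members had all 3 above, against 13.8%. The libraries differed as wholes: 30 members were above their own mean over the 6 libraries in WT replicate 1, but 13 and 15 in WT replicates 2 and 3, 16 and 17 in GFAP-IL6 replicates 1 and 2, and 6 in GFAP-IL6 replicate 3. WT replicate 1 and GFAP-IL6 replicate 2, which held the most members above their mean in each group, also had the lowest sums of oligodendrocyte markers, 3225 and 3246 CPM against 4216 to 5940.1 CPM in the other 4, and the part of this in the members' values was not tested. Without WT replicate 1 the median log2 fold change of the members was -0.012, and without GFAP-IL6 replicate 3 it was -0.036.

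**Figure D1:**
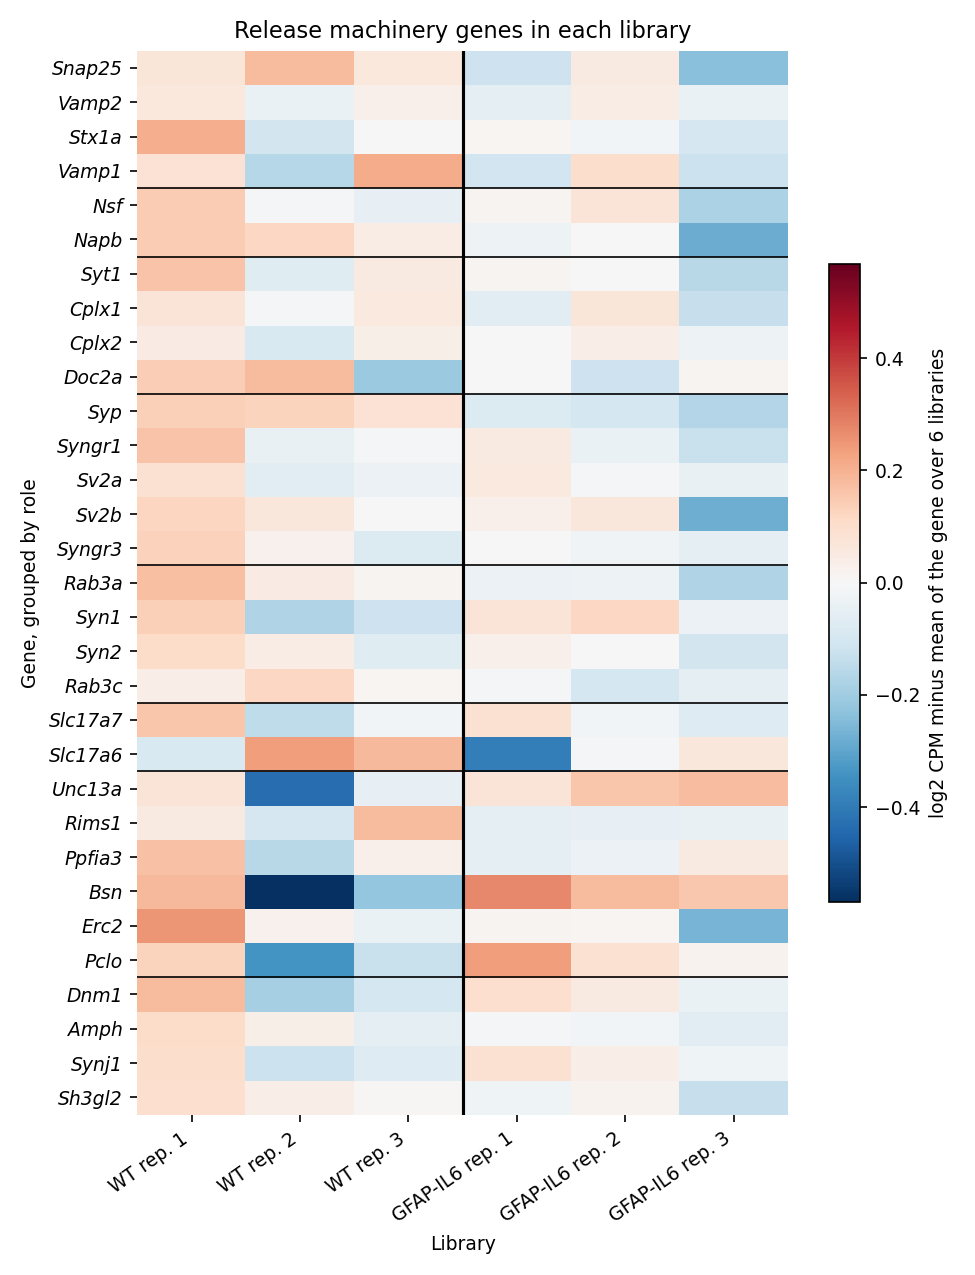
Heat map of the 31 members (rows, ordered by role) in the 6 libraries (columns), where colour gives the log2 CPM of a library minus the gene's mean over all libraries. WT replicate 1 is above the mean for 30 members, and WT replicate 2 is lowest for Bsn, Unc13a and Pclo.

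**Figure D2:**
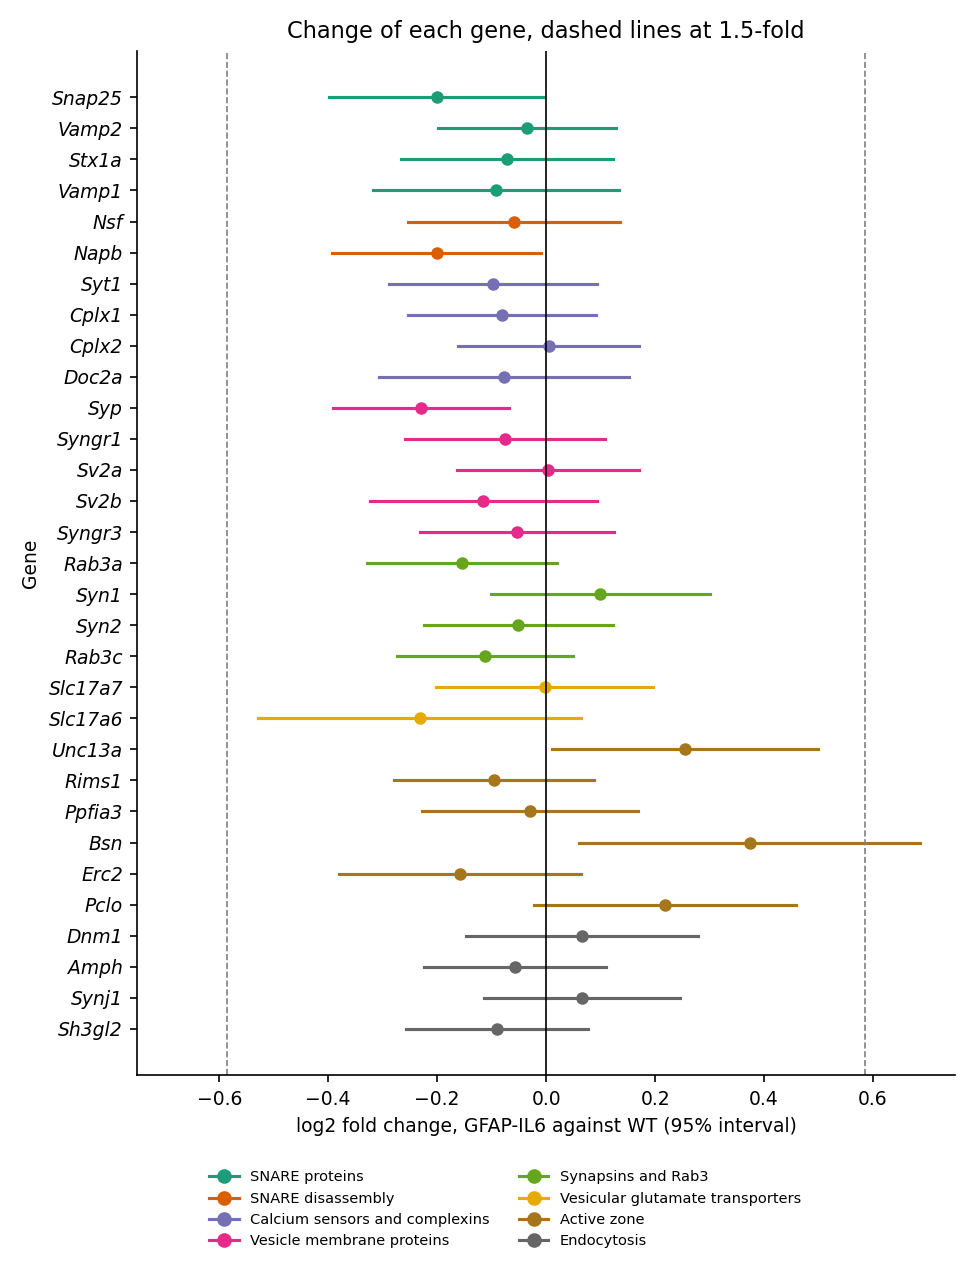
Log2 fold change of GFAP-IL6 against WT for each member (points, coloured by role) with the 95% interval from edgeR (bars, n = 3 and 3), beside dashed lines at 1.5-fold. The points run from -0.23 to 0.37, and only the bar of Bsn crosses a dashed line, while 15 rather than 23 of the points are below 0 under scaling to the neuronal list.

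The SNARE proteins form the bundle that drives membrane fusion. All 4 had negative fold changes, of which Stx1a and Vamp2 turned positive under scaling to the neuronal list, and Snap25 alone had an unadjusted p under 0.05. Snap25 (chromosome 2, 136713453 to 136782428 on the plus strand, GRCm38) was at 3163, 3411 and 3140.0 CPM in WT replicates 1, 2 and 3, and 2779, 3119 and 2554 CPM in GFAP-IL6 replicates 1, 2 and 3. The groups did not overlap, and GFAP-IL6 replicate 2 lay just below the lowest WT library. Its log2 fold change was -0.20 (SE 0.091, 95% interval -0.40 to -0.0038), with an edgeR p of 0.0464 and an adjusted p of 0.237, and without GFAP-IL6 replicate 3 it was -0.13, with an adjusted p of 0.530. Vamp2, the main vesicle SNARE of the forebrain, was at 974, 911 and 952 CPM in WT and 898, 962 and 909.7 CPM in GFAP-IL6, and its relative Vamp1 was at 203, 171 and 222 CPM in WT and 177, 205 and 176 CPM in GFAP-IL6. Both overlapped between the groups, with log2 fold changes of -0.035 (95% interval -0.20 to 0.13) for Vamp2 and -0.092 (95% interval -0.32 to 0.13) for Vamp1. Stx1a, a plasma membrane syntaxin, was at 338 ± 37.5 CPM in WT and 321 ± 11.97 CPM in GFAP-IL6 (n = 3), with a log2 fold change of -0.072 (95% interval -0.27 to 0.12).

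SNARE complexes are taken apart by the ATPase NSF and its SNAP adaptors, of which Napb encodes the brain form. Napb (chromosome 2, 148693985 to 148732467 on the minus strand) was at 597, 586 and 556 CPM in WT replicates 1, 2 and 3, and 529, 540.0 and 444 CPM in GFAP-IL6 replicates 1, 2 and 3. All GFAP-IL6 libraries were below all WT libraries, and GFAP-IL6 replicate 3 was the lowest. The log2 fold change of Napb was -0.20 (SE 0.088, 95% interval -0.39 to -0.0085), with an edgeR p of 0.0420 and an adjusted p of 0.227. Without GFAP-IL6 replicate 3 it was -0.11, with an edgeR adjusted p of 0.569. Nsf was at 840.0 ± 58.8 CPM in WT and 806 ± 72.0 CPM in GFAP-IL6, and its log2 fold change of -0.059 (95% interval -0.25 to 0.13) turned positive under scaling to the neuronal list.

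Calcium sensors and complexins time the fusion step. Synaptotagmin 1, encoded by Syt1, is the calcium sensor of fast release, Doc2a encodes a high-affinity sensor of asynchronous and spontaneous release, and complexins clamp and activate the SNARE complex. Of these 4 genes, 3 were negative and 1 positive under every scaling tried, and none had an unadjusted edgeR p under 0.05. Cplx1 was at 679, 643 and 672 CPM in WT and 620.2, 676 and 589 CPM in GFAP-IL6, and Cplx2 was at 1194, 1088 and 1184 CPM in WT and 1159, 1186 and 1133 CPM in GFAP-IL6. Both complexins overlapped between the groups, with log2 fold changes of -0.080 (95% interval -0.25 to 0.092) for Cplx1 and 0.0052 (95% interval -0.16 to 0.17) for Cplx2. Syt1 was at 1741 ± 139.8 CPM in WT and 1628 ± 107 CPM in GFAP-IL6, with a log2 fold change of -0.10 (95% interval -0.29 to 0.094). Doc2a was at 56.1 ± 7.94 CPM in WT and 53.1 ± 2.68 CPM in GFAP-IL6, with a log2 fold change of -0.077 (95% interval -0.31 to 0.15). The value of Doc2a is uncertain, because 39.4% of its exon bases overlap exons of Ino80e on the opposite strand and the use of strand in counting was not stated.

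Among the 5 vesicle membrane proteins, Syp stood apart. Syp (chromosome X, 7638471 to 7653256 on the plus strand) was at 1299, 1290.1 and 1253 CPM in WT replicates 1, 2 and 3, and 1120.4, 1103 and 1053 CPM in GFAP-IL6 replicates 1, 2 and 3. The WT libraries lay close together, with a coefficient of variation of 1.87%, and the highest GFAP-IL6 library was below the lowest WT library. Its log2 fold change was -0.23 (SE 0.074, 95% interval -0.39 to -0.069), a difference of -14.7% (95% interval -23.7% to -4.67%). The edgeR p was 0.00882 and the adjusted p 0.121, whereas DESeq2, the tool of the study's methods, gave a log2 fold change of -0.23 with an adjusted p of 0.0494 and called 3.17% of all genes. Syp was thus past an adjusted p of 0.05 by DESeq2 and not by edgeR. The study also required an absolute log2 fold change over 1, which Syp did not reach in either fit. An antisense gene, Gm14703, overlaps 16.8% of the exon bases of Syp and had 37.9 to 41.7 counts for every 100 counts of Syp in each library. Its log2 fold change was -0.24 with an edgeR adjusted p of 0.134, and without strand the reads of both genes in the overlap cannot be told apart.

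The other vesicle membrane genes encode the SV2 glycoproteins, which are needed for normal calcium-triggered release, and the synaptogyrins, which are relatives of synaptophysin. Sv2a was at 509.5, 461 and 469.9 CPM in WT and 499, 478 and 467 CPM in GFAP-IL6, and Sv2b was at 600.2, 577 and 550.4 CPM in WT and 563, 577 and 454 CPM in GFAP-IL6. Sv2a overlapped between the groups, with a log2 fold change of 0.0031 (95% interval -0.16 to 0.17) that was -0.0015 in DESeq2, as did Sv2b with -0.12 (95% interval -0.32 to 0.093). Syngr1 was at 638, 553 and 567 CPM in WT and 590.0, 556 and 523 CPM in GFAP-IL6, and Syngr3 was at 131, 122 and 114 CPM in WT and 119.9, 118 and 116 CPM in GFAP-IL6. Their groups overlapped too, with log2 fold changes of -0.075 (95% interval -0.26 to 0.11) for Syngr1 and -0.054 (95% interval -0.23 to 0.12) for Syngr3, the latter positive under scaling to the neuronal list.

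Synapsins tether vesicles of the reserve pool to each other and to the cytoskeleton, and the small GTPases of the Rab3 family bring vesicles to the active zone. Rab3a was at 441, 404 and 395 CPM in WT replicates 1, 2 and 3, and 383, 383 and 348 CPM in GFAP-IL6 replicates 1, 2 and 3. Its GFAP-IL6 libraries were all below its WT libraries, by a narrow margin, and the log2 fold change was -0.15 (SE 0.080, 95% interval -0.33 to 0.020) with an edgeR p of 0.0776. Rab3c was at 355, 375 and 348 CPM in WT and 342, 322 and 332 CPM in GFAP-IL6, again without overlap, with a log2 fold change of -0.11 (95% interval -0.27 to 0.050) and an edgeR p of 0.158. Syn1 was at 590.4, 478 and 496 CPM in WT and 567, 584 and 525 CPM in GFAP-IL6, and Syn2 was at 527, 505 and 468 CPM in WT and 500.3, 491 and 457 CPM in GFAP-IL6. WT replicate 2 was the lowest library for Syn1 and the groups of both synapsins overlapped. The log2 fold change of Syn1 was 0.10 (95% interval -0.10 to 0.30), and that of Syn2 was -0.051 (95% interval -0.22 to 0.12) and turned positive under scaling to the neuronal list.

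The vesicular glutamate transporters fill vesicles, with Slc17a7 (VGLUT1) typical of cortical projection neurons and Slc17a6 (VGLUT2) of thalamic and other subcortical inputs. In WT the level of Slc17a7 per base was 85.3 times that of Slc17a6 with the deposited lengths. With the exon bases of GENCODE M21 the factor was smaller, at 226 against 3.90 CPM per kilobase. Slc17a7 was at 1354, 1097 and 1199.6 CPM in WT and 1290.1, 1201 and 1153 CPM in GFAP-IL6. Its WT libraries spanned its GFAP-IL6 libraries, and the log2 fold change was -0.0024 (95% interval -0.20 to 0.20), positive under upper-quartile scaling and under scaling to the neuronal list. Slc17a6 was at 18.3, 22.8 and 22.0 CPM in WT and 14.8, 19.3 and 20.3 CPM in GFAP-IL6. It was the least precise member after Bsn, with overlapping groups and a log2 fold change of -0.23 (SE 0.14, 95% interval -0.53 to 0.064) at an edgeR p of 0.114.

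Active zone proteins, which position and prime vesicles, had the highest median log2 fold change of the 8 role groups, 0.095 over 6 genes, with 3 positive and 3 negative, of which Ppfia3 turned positive under scaling to the neuronal list. Bsn (chromosome 9, 108096022 to 108190384 on the minus strand) was at 635, 377 and 479.5 CPM in WT replicates 1, 2 and 3, and 675, 634 and 622 CPM in GFAP-IL6 replicates 1, 2 and 3. The GFAP-IL6 libraries lay close together and WT replicate 2 was far below, but WT replicate 1 was just above GFAP-IL6 replicate 2 and above replicate 3, so that the groups overlapped. The log2 fold change of Bsn was 0.37 (SE 0.14, 95% interval 0.061 to 0.69), a difference of 29.5% (95% interval 4.32% to 60.9%), with an edgeR p of 0.0229 and an adjusted p of 0.180. Without WT replicate 1 the log2 fold change was 0.59 and passed, with an edgeR adjusted p of 0.0089 in a fit that called 6.83% of all genes. Without WT replicate 2 it was 0.21, with an edgeR adjusted p of 0.324. Without the filter on low counts Bsn also passed, with an adjusted p of 0.0143 where 5.10% of all genes were called.

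Unc13a encodes Munc13-1, which primes docked vesicles for fusion, and Pclo encodes piccolo, the giant partner of bassoon. Unc13a (chromosome 8, 71624417 to 71671757 on the minus strand) was at 619.7, 436 and 570.0 CPM in WT replicates 1, 2 and 3, and 619, 657 and 664 CPM in GFAP-IL6 replicates 1, 2 and 3. Pclo (chromosome 5, 14514918 to 14863459 on the plus strand) was at 408, 295 and 343 CPM in WT replicates 1, 2 and 3, and 441, 397 and 379 CPM in GFAP-IL6 replicates 1, 2 and 3. In both, WT replicate 2 was the lowest library and WT replicate 1 was inside the range of GFAP-IL6. The log2 fold change was 0.26 (SE 0.11, 95% interval 0.011 to 0.50) for Unc13a, with an edgeR p of 0.0420 and an adjusted p of 0.227. For Pclo it was 0.22 (SE 0.11, 95% interval -0.022 to 0.46), with an edgeR p of 0.0711. These values moved with the WT libraries. Without WT replicate 2 the log2 fold change was 0.12 for Unc13a and 0.11 for Pclo, with edgeR adjusted p of 0.484 and 0.601. Without WT replicate 1 it was 0.36 and 0.35, with edgeR adjusted p of 0.0630 and 0.0531. The other 3 scaffold genes, which encode the RIM1 organizer of calcium channels and vesicles, a liprin and the ELKS relative ERC2, had negative values. Rims1 was at 334 ± 32.1 CPM in WT and 313 ± 0.912 CPM in GFAP-IL6, with a log2 fold change of -0.10 (95% interval -0.28 to 0.087). Erc2 was at 163 ± 17.5 CPM in WT and 146 ± 15.6 CPM in GFAP-IL6, with a log2 fold change of -0.16 (95% interval -0.38 to 0.064), and Ppfia3 was at 219 ± 24.5 CPM in WT and 215 ± 8.18 CPM in GFAP-IL6, with -0.029 (95% interval -0.23 to 0.17). All 3 overlapped between the groups.

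**Figure D3:**
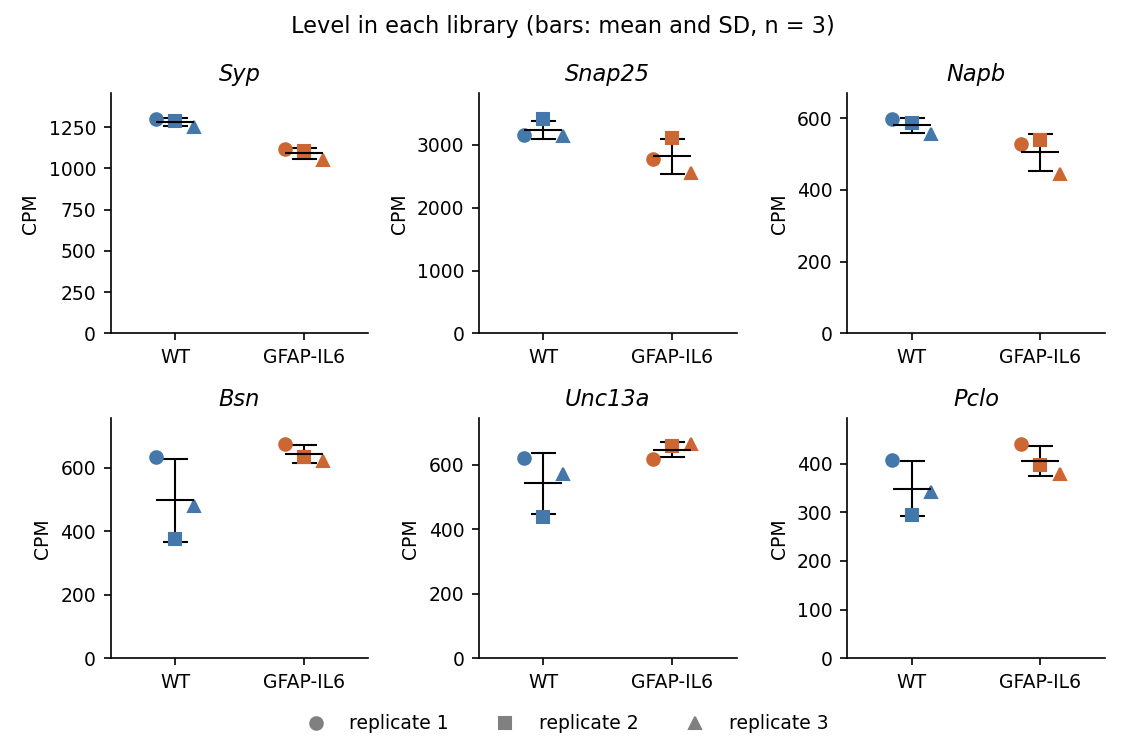
CPM of Syp, Snap25, Napb, Bsn, Unc13a and Pclo in each of the 6 libraries (symbols mark replicates, bars the mean and SD of 3 mice). The groups of Syp, Snap25 and Napb do not overlap, whereas for Bsn, Unc13a and Pclo they do, with WT replicate 2 lowest.

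Endocytic proteins retrieve vesicle membrane after fusion. Dynamin 1 (Dnm1) pinches off the vesicle, amphiphysin (Amph) and endophilin A1 (Sh3gl2) shape the neck and recruit partners, and synaptojanin 1 (Synj1) removes phosphate groups from lipids so that the clathrin coat is shed. Of the 4 genes, 2 were positive and 2 negative, with Amph positive under scaling to the neuronal list. Dnm1 was at 1122 ± 154 CPM in WT and 1175 ± 53.7 CPM in GFAP-IL6, with a log2 fold change of 0.066 (95% interval -0.15 to 0.28). Synj1 was at 404 ± 33.3 CPM in WT and 423 ± 16.4 CPM in GFAP-IL6, with a log2 fold change of 0.066 (95% interval -0.11 to 0.25). Amph and Sh3gl2 had log2 fold changes of -0.057 (95% interval -0.22 to 0.11) and -0.090 (95% interval -0.26 to 0.076), from 207 ± 10.9 and 323 ± 9.93 CPM in WT. All 4 overlapped between the groups, and their edgeR p lay between 0.260 and 0.514.

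The 3 members with the largest positive values were also the 3 longest, at 22051 bases for Pclo, 15938 for Bsn and 10312 for Unc13a in the table. Over all genes the 940 longer than 8000 bases had a median log2 fold change of 0.10, and the 4097 shorter than 2000 bases had -0.085. Length and fold change had a Spearman correlation of 0.21 across all genes tested, of 0.30 across the 31 members and of 0.057 across the 28 members without these 3. GC content of the longest transcript had a Spearman correlation with fold change of 0.26 across all genes with a GC value. It was 0.61 across the members and 0.68 across the 28 members without these 3. These points share the same 6 libraries. Within a library, the deviations of all genes tested from their own means were also correlated with GC content. The Spearman correlation was 0.16, -0.32 and -0.23 in WT replicates 1, 2 and 3. In GFAP-IL6 replicates 1, 2 and 3 it was 0.17, 0.11 and 0.22, and its part in the fold changes was not tested. By length WT replicate 2 stood apart. There the 3 long members had a median deviation of -0.43 on the log2 scale from their own means, and genes over 8000 bases one of -0.15. The same library had the highest sum of striatal markers, 473 CPM against 245 to 320.0 CPM in the other 5, whose part in this was not tested.

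With an offset for the trend of counts with length and GC content in each library, added after the data had been seen, the log2 fold change was 0.063 for Bsn, 0.063 for Pclo and 0.034 for Unc13a. Under the same offset it was -0.17 for Syp and -0.052 for Snap25. By this measure 27 members were negative, among them Syn1, Sv2a, Cplx2 and Dnm1, with a median of -0.12 over the members and -0.034 over all genes, and 0 members passed an adjusted p of 0.05 in edgeR. The smallest edgeR adjusted p under the offset was 0.0700, for Ppfia3 at a log2 fold change of -0.22. Syngr1 was at -0.23, with an edgeR adjusted p of 0.0955. The offset removes any real change that goes with length or GC content along with a technical trend, and its part was not tested further.

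**Figure D4:**
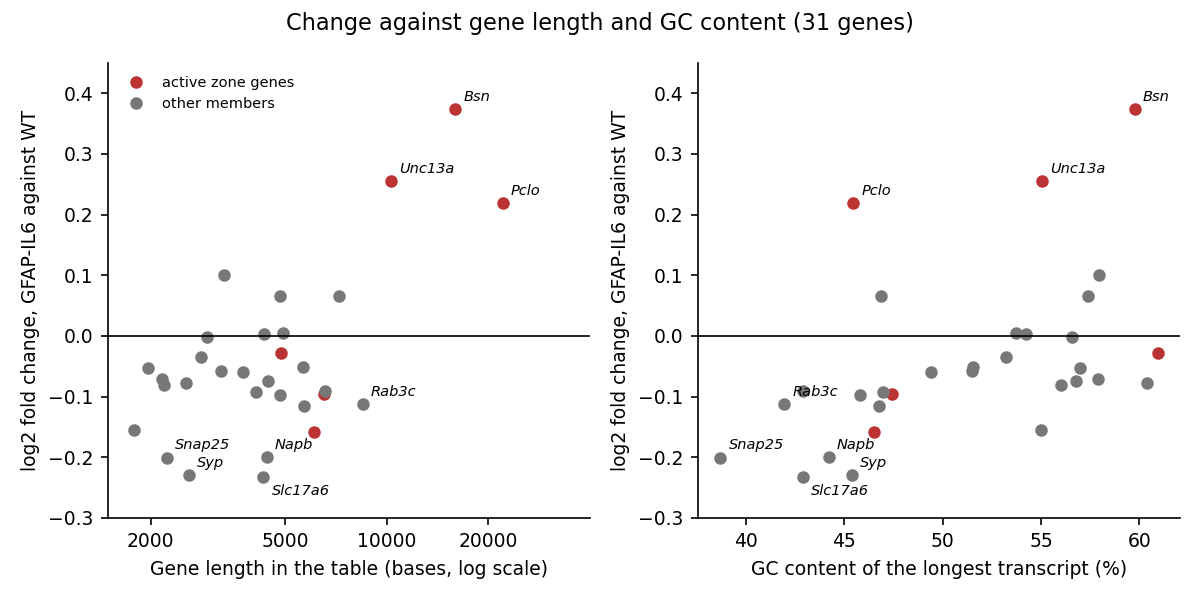
Log2 fold change of GFAP-IL6 against WT for the 31 members against gene length in the table (left, bases, log axis) and GC content of the longest transcript (right, percent), with active zone genes in red. Pclo, Bsn and Unc13a are the longest and have the largest positive values, and the Spearman correlation over the members is 0.30 with length and 0.61 with GC content.

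Ratios between related genes do not depend on the scaling between libraries, but they can still carry a library's trend with length or GC content. GC content was 57.9% for Syn1 and 51.6% for Syn2, and 59.8% for Bsn and 45.4% for Pclo. The part of this in the ratios was not tested. For 8 pairs the log2 ratio of counts was compared by an exact two-sided permutation test, in which 3 against 3 libraries cannot give a p below 0.1. The log2 ratio of Syn1 to Syn2 was 0.16, -0.079 and 0.082 in WT and 0.18, 0.25 and 0.20 in GFAP-IL6. The GFAP-IL6 values were all above the WT values, a difference of 0.15 with the smallest possible p (exact permutation test, p = 0.1, adjusted p = 0.6). The log2 ratio of Bsn to Pclo was 0.64, 0.35 and 0.48 in WT and 0.62, 0.68 and 0.71 in GFAP-IL6, a difference of 0.18 (exact permutation test, p = 0.2, adjusted p = 0.6). Here the groups overlapped through WT replicate 1. The other 6 differences were 0.13 for Sv2a/Sv2b, -0.088 for Cplx1/Cplx2, -0.052 for Vamp1/Vamp2, -0.043 for Rab3a/Rab3c, -0.22 for Slc17a6/Slc17a7 and -0.022 for Syngr1/Syngr3, all with overlapping groups and an exact permutation p of 0.3 to 0.7 (adjusted p of 0.6 to 0.7).

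**Figure D5:**
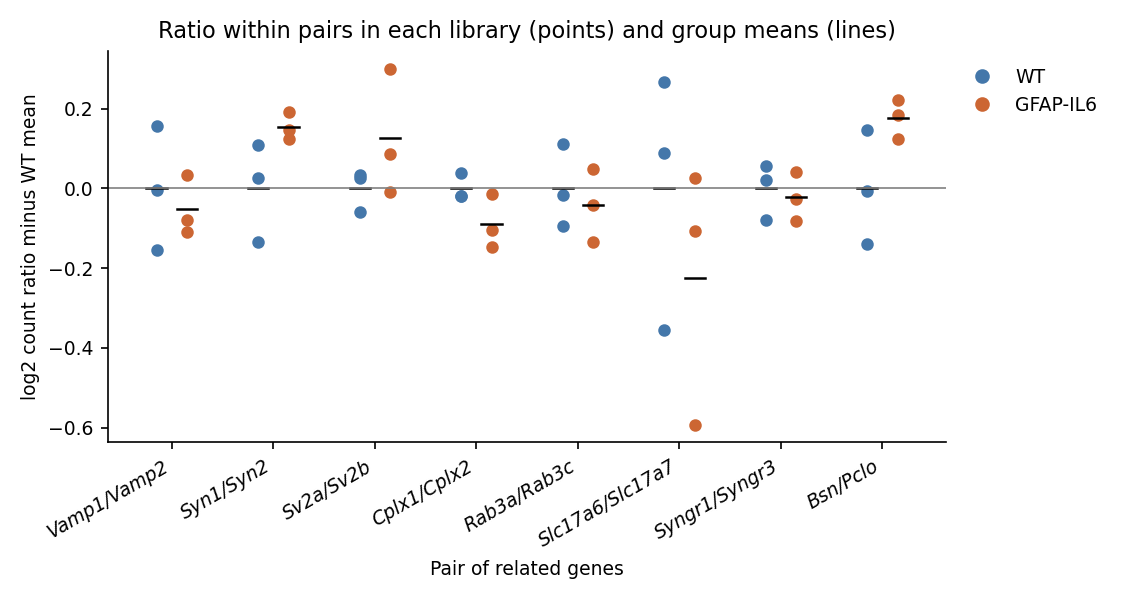
Log2 ratio of counts in each library, minus the mean of the WT libraries, for the 8 related pairs, with WT and GFAP-IL6 replicates as points and the group means as lines (n = 3 and 3). The groups of Syn1/Syn2 do not overlap, and those of the other 7 pairs do.

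The rest of the vesicle cycle was read from 70 further genes, all of which were tested. Of these, 31 had positive and 39 negative fold changes, which became 43 and 27 under scaling to the neuronal list. The median log2 fold change was -0.034, or 0.037 under that scaling. With the offset for length and GC content 17 were positive and 53 negative, with a median of -0.099. The median was 0.010 without WT replicate 1 and 0.0079 without GFAP-IL6 replicate 3. The interval was within 1.5-fold of no change for 63 of 70, against 68.1% of all genes. The median standard error was 0.089 over these 70 genes and 0.12 over all genes. By edgeR 1 gene passed in each direction, together a share close to the 2.86% of all genes. The directions were unequal over all genes, where 407 passed as higher and 32 as lower. Synpr, which encodes synaptoporin, a relative of synaptophysin, was at 91.5, 104 and 101 CPM in WT replicates 1, 2 and 3, and 72.6, 79.2 and 70.6 CPM in GFAP-IL6 replicates 1, 2 and 3. All GFAP-IL6 libraries were lower, with a log2 fold change of -0.42 (SE 0.086, 95% interval -0.60 to -0.23) and an edgeR adjusted p of 0.0190. Under scaling to the neuronal list the log2 fold change of Synpr was -0.35, with an edgeR adjusted p of 0.0562. It was -0.40, -0.40 and -0.38, with edgeR adjusted p of 0.0682, 0.115 and 0.150, without WT replicate 3, GFAP-IL6 replicate 1 and GFAP-IL6 replicate 3. Ppfia4, which encodes a liprin of the same family as Ppfia3, was at 64.5, 53.9 and 67.4 CPM in WT replicates 1, 2 and 3, and 81.7, 83.1 and 79.1 CPM in GFAP-IL6 replicates 1, 2 and 3. All GFAP-IL6 libraries were higher, with a log2 fold change of 0.39 (SE 0.093, 95% interval 0.19 to 0.60) and an edgeR adjusted p of 0.0417. With the offset for length and GC content the log2 fold change of Ppfia4 was 0.20, with an edgeR adjusted p of 0.159. Without GFAP-IL6 replicates 1, 2 and 3 it was 0.39, 0.38 and 0.42, with edgeR adjusted p of 0.152, 0.150 and 0.154.

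At an unadjusted p under 0.05, 10 of the 70 genes were lower, against 9.37% of all genes, and 5 were higher, against 11.1%. The complexin Cplx3 had a log2 fold change of -0.42 (95% interval -0.66 to -0.17), the clathrin adaptor subunit Ap2s1 -0.25 (95% interval -0.42 to -0.073) and the secretory carrier protein Scamp1 -0.23 (95% interval -0.41 to -0.055), with edgeR adjusted p of 0.0781, 0.123 and 0.147. The GFAP-IL6 libraries of these 3 genes were all below the WT libraries. On the other side, dynamin 2 (Dnm2) had a log2 fold change of 0.28 (95% interval 0.089 to 0.47), endophilin A2 (Sh3gl1) 0.30 (95% interval 0.078 to 0.51), syntaphilin (Snph), which anchors axonal mitochondria, 0.24 (95% interval 0.052 to 0.43) and Munc13-2 (Unc13b) 0.18 (95% interval 0.0021 to 0.37), with edgeR adjusted p of 0.113, 0.135, 0.156 and 0.240. The groups of Unc13b overlapped and those of the other 3 did not.

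Markers of other cells varied beside these results. Summed over 6 genes, inhibitory neuron markers were at 885 to 938 CPM in WT and 721 to 795 CPM in GFAP-IL6, with 6 of 6 lower and 0 past an adjusted p of 0.05 by edgeR. In other fits of edgeR 3 of the 6 passed without the filter on low counts, where 5.10% of all genes did. With the offset for length and GC 1 passed, against 3.26% of all genes, and with the replicate block 2, against 4.89%. When WT replicate 1 was left out 2 passed, against 6.83% of all genes. In the remaining edgeR fits 0 passed, among them scaling to the neuronal list. Microglia markers were higher in GFAP-IL6 for 4 of 5 genes, and these 4 passed an adjusted p of 0.05 by edgeR. Sums over the 5 were 319.9 to 392 CPM in WT and 549 to 626 CPM in GFAP-IL6. Endothelial markers were higher for 5 of 5, with sums of 103 to 123 CPM in WT and 173 to 202 CPM in GFAP-IL6. Of these 5, 3 passed an adjusted p of 0.05 by edgeR, against 2.86% of all genes. Astrocyte sums overlapped, at 4270.0 to 5446 CPM in WT and 4829 to 5611 CPM in GFAP-IL6, with 0 of 5 genes past an adjusted p of 0.05. The sums of other lists varied between libraries more than between groups. Oligodendrocyte sums ran from 3225 to 5940.1 CPM in WT and from 3246 to 5068 CPM in GFAP-IL6, lowest in WT replicate 1 and GFAP-IL6 replicate 2. Striatal sums were 245 to 473 CPM in WT and 265 to 320.0 CPM in GFAP-IL6, and thalamic sums were 139.8 to 161 CPM and 146 to 163.8 CPM. By gene, 7 of 8 striatal markers were lower, and the groups of Ppp1r1b (log2 fold change -0.44) did not overlap. Of 6 thalamic markers 4 were higher, and the groups of Prkcd (0.64) and Plekhg1 (0.32) did not overlap. Of all genes 12.7% lay lower and 13.8% higher without overlap. In both lists 0 genes passed an adjusted p of 0.05 by edgeR. Choroid plexus markers reached 606 CPM in WT replicate 3 and 3.22 to 59.0 CPM elsewhere, where Folr1 was at 0 in GFAP-IL6 replicate 3. The 15 neuronal genes summed to 10094 to 11295 CPM in WT and 10319.5 to 10966 CPM in GFAP-IL6. Their part in the members' values was not tested beyond the scaling to the neuronal list.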

How the data were processed

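TruSeq mRNA libraries from frontal cortex were deposited by the authors as raw gene counts, with a gene length, made by STAR 2.4 alignment and featureCounts. The methods name the mouse assembly mm10, and strand use is not stated. Counts were whole numbers and were used as deposited. Groups and replicate numbers came from the titles. No 2 libraries agreed within sampling noise (chi-square per degree of freedom of 2.23 to 20.1).

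GFAP-IL6 was compared with WT by the quasi-likelihood F-test of edgeR 4.0.16 (R 4.3.3) on all 6 libraries, with TMM scaling, filterByExpr and Benjamini-Hochberg adjustment over 15341 genes. CPM values are TMM-scaled, and TPM uses the deposited length. Standard errors were derived from the F statistic. Alternatives were DESeq2 1.42.0, limma-voom (limma 3.58.1), other scalings and filters, thinning, a replicate block, each library left out, and, added after the data had been seen, an offset for length and GC content. The fits were tested on simulated data with planted changes larger than those of any member, so the detection of changes of the members' size was not tested. Positions and exon overlaps came from GENCODE M21 on GRCm38, and promoters from RefSeq on GRCm38.p6.

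The members, their 8 role groups, 10 marker lists and 70 other vesicle cycle genes were chosen with earlier results of these data known. All members are named. Values in every library are given for the 4 with the smallest unadjusted p in each direction, the 2 with the highest TPM and the genes of 8 related pairs. Of the other vesicle cycle genes, those past an adjusted p of 0.05 and up to 4 more in each direction are named, except for an item not reported here. Library totals ranged from 7559524 to 16877001 counts, and intervals cover the spread between mice. Libraries of the 3′ pooled protocol were not used here.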

Additional observations from a re-analysis of the deposited data

How the results depend on the processing

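The 31 members and the 8 ratios were recomputed under 16 alternatives for the members and 8 for the ratios. The number of members past an adjusted p of 0.05 was 0 except in 3 settings: 1 in DESeq2 (Syp), 1 without the filter on low counts (Bsn), and 0 to 1 when each library was left out in turn (Bsn, without WT replicate 1). Scaling to the neuronal list left 15 members negative and moved the median log2 fold change to 0.0026. That scaling also turned the sign of 8 members, giving 0.0026 for Stx1a, 0.038 for Vamp2, 0.021 for Syn2, 0.012 for Nsf, 0.072 for Slc17a7, 0.020 for Syngr3, 0.016 for Amph and 0.048 for Ppfia3. The offset for length and GC gave -0.039 for Syn1, -0.12 for Sv2a, -0.12 for Cplx2 and -0.10 for Dnm1. Slc17a7, at -0.0024 under edgeR, was 0.00060 in limma-voom, 0.0034 under upper-quartile scaling, 0.00034 with a mean CPM of at least 1 and 0.0011 with the replicate block, and Sv2a was -0.0015 in DESeq2. Leaving out each library in turn gave log2 fold changes of -0.14 to 0.020 for Stx1a, -0.026 to 0.049 for Sv2a, -0.037 to 0.031 for Cplx2, -0.11 to 0.014 for Nsf, -0.073 to 0.083 for Slc17a7, -0.0097 to 0.18 for Dnm1, -0.10 to 0.00052 for Syngr3, -0.11 to 0.052 for Ppfia3 and -0.19 to 0.000070 for Doc2a, and differences in log2 ratio of -0.13 to 0.027 for Vamp1/Vamp2, -0.089 to 0.013 for Rab3a/Rab3c and -0.062 to 0.0071 for Syngr1/Syngr3. The causes of these turns were not tested. Syp stayed between -0.25 and -0.16 and Bsn between 0.063 and 0.59 under all 16.

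Samples with the same replicate number had correlations of 0.112, 0.0172 and 0.0350 between their deviations from the group means. WT replicates 1 and 3 correlated best with their own number, and WT replicate 2 with GFAP-IL6 replicate 3 (0.0520). These values do not settle whether the numbers pair the mice. The labels do not say that they mark a litter, batch or day, so the main fit did not pair by them. With the replicate block, 0 members passed, the smallest member adjusted p in edgeR was 0.0539, and 750 rather than 439 of all genes were called. Leaving out a library gave 187 to 1061 calls over all genes, and the filter left off gave 1154. Thinning every library to the smallest total left the median at -0.069 with 0 members past the threshold.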

Other observations

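The inhibitory neuron markers were lower as single genes than most members were. Somatostatin (Sst), a peptide of one class of cortical interneuron, was at 157, 169 and 158 CPM in WT replicates 1, 2 and 3, and 125, 117 and 141 CPM in GFAP-IL6 replicates 1, 2 and 3, with a log2 fold change of -0.34 (95% interval -0.53 to -0.15) and an edgeR adjusted p of 0.0619. Its groups did not overlap. Vip, the peptide of another class, had a log2 fold change of -0.35 (95% interval -0.61 to -0.081), and Pvalb, the calcium buffer of fast-spiking cells, had -0.32 (95% interval -0.54 to -0.093), both with overlapping groups and edgeR adjusted p of 0.149 and 0.123. The GABA-synthesizing enzymes Gad1 and Gad2 were at -0.22 (95% interval -0.40 to -0.036) and -0.17 (95% interval -0.34 to -0.0028), without overlap between the groups. The transcription factor Lhx6 was at -0.089 (95% interval -0.35 to 0.17), and Slc32a1, which encodes the transporter that loads GABA into vesicles, was at -0.061 (95% interval -0.26 to 0.14), both with overlapping groups. No gene named here passed an adjusted p of 0.05 by edgeR on all 6 libraries with TMM scaling, the low-count filter and no covariate. Sst passed in DESeq2 (adjusted p of 0.0176), and in edgeR without the filter on low counts (0.0165), with the replicate block (0.0475), with the offset for length and GC (0.0168) and without WT replicate 1 (0.0426). In the other settings Sst did not pass. Under scaling to the neuronal list its log2 fold change was -0.26, with an edgeR adjusted p of 0.190. Without GFAP-IL6 replicate 1, GFAP-IL6 replicate 2 or WT replicate 3 the edgeR adjusted p was 0.224, 0.214 or 0.114. Vip also passed without the filter and with the block, and Pvalb without the filter and without WT replicate 1. These differences were not tested against those of the members.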
